A study of Mus musculus with 38 samples.

Results

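The 8 genes described here encode renal water and glycerol channels and the receptor of the antidiuretic hormone: Aqp1, Aqp2, Aqp3, Aqp4, Aqp6, Aqp7 and Aqp11 of the aquaporin family, and Avpr2, the vasopressin V2 receptor. They were taken by symbol from a table of 55487 genes, and all 8 passed the filter on low counts in each of the 3 experiments. Kidney RNA was sequenced from 14 male C57BL/6JRj mice, from 16 female BALB/c mice and from 8 cultures of precision-cut kidney slices (PCKS) of male DBA/2J mice, which makes 38 libraries in 10 groups. In the first experiment, vehicle went to 4 healthy and 4 anti-GBM mice, and FGF23 went to 3 healthy and 3 anti-GBM mice. Anti-GBM disease is an immune glomerulonephritis, here induced at 8 weeks of age with sheep IgG and a nephrotoxic serum, and the treatment was a daily intravenous injection of 1 µg recombinant human FGF23 or its buffer over 6 days. The second experiment held 4 mice in each of 4 groups, healthy or with Adriamycin nephropathy, a toxic podocyte injury induced at 8 weeks by a single injection, and each mouse received vehicle or 1 µg FGF23 once, 24 h before the kidney was taken. The slices came from mice put on 0.2% adenine at 8 weeks, which causes a crystal nephropathy with fibrosis, and 4 cultures received vehicle and 4 received 0.2 µg/mL FGF23. The labels give 1 h for this exposure where the methods of the study give a longer one, and all slices came from diseased kidneys. Of each mouse kidney a fragment of the middle zone was sequenced, so a fragment with more medulla and a kidney with more RNA per cell cannot be told apart, nor can fewer cells of a type and less RNA per cell.

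Water leaves the collecting duct in a route that needs several of these proteins. Vasopressin binds the V2 receptor on the basolateral membrane of principal cells, cyclic AMP and protein kinase A then bring AQP2 to the apical membrane and raise Aqp2 transcription, and water exits through AQP3 and AQP4 on the basolateral side. AQP1 is the constitutive water channel of the proximal tubule and the descending thin limb, AQP7 carries water and glycerol in the brush border of the straight proximal tubule, AQP11 resides in the endoplasmic reticulum of proximal tubule cells, and AQP6 sits in intracellular vesicles of intercalated cells.

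In the GRCm38 build, Aqp2 (ENSMUSG00000023013) lies at chr15:99579055-99584547 and Aqp6 (ENSMUSG00000043144) follows it on the same strand at chr15:99601400-99605477. Aqp7 (ENSMUSG00000028427) at chr4:41033074-41048139 and Aqp3 (ENSMUSG00000028435) at chr4:41092722-41098183 are neighbours as well. Aqp1 (ENSMUSG00000004655) lies at chr6:55336432-55348555, Aqp11 (ENSMUSG00000042797) at chr7:97724006-97738289, and Avpr2 (ENSMUSG00000031390) at chrX:73892102-73895502. Exons of Avpr2 share 2347 of their 2886 bases with exons of Arhgap4 on the opposite strand. Whether the counting used strand is not given in the sources used here, so the counts of Avpr2 are uncertain. Aqp4 (ENSMUSG00000024411) shares no exon bases with another annotated gene. The promoters of Aqp2 and Aqp3, the apical and the basolateral channel of the same cell, are shown. They were picked because Aqp3 passed as lower in anti-GBM disease and Aqp2 did not pass. A difference between the 2 genes was not tested. Each is the 250 bases before the RefSeq start in GRCm38.p6, 5′ to 3′ on the strand of the gene, chr15:99578806-99579055 on the plus strand for Aqp2 and chr4:41098184-41098433 on the minus strand for Aqp3. Capitals mark the letters CGTCA, which are TGACG, the half-site of the cyclic AMP response element, read on the other strand, and TTATCT, which is the GATA motif AGATAA on the other strand.
Aqp2 promoter: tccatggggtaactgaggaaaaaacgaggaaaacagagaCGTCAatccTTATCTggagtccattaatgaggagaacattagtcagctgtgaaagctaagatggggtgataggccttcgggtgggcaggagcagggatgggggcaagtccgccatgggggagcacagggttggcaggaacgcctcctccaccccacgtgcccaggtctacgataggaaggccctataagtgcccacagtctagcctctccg
Aqp3 promoter: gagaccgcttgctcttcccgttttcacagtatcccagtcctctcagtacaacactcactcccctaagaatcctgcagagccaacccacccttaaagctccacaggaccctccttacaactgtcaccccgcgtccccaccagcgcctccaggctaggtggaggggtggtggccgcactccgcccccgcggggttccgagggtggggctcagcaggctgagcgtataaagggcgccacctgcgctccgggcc
The half-site in Aqp2 lies at positions -211 to -207 and the GATA motif at -202 to -197, and neither was in the Aqp3 window. On either strand, the half-site occurs in 17.8% and AGATAA in 9.99% of 32851 RefSeq promoter windows, so both are common letters. The full element TGACGTCA, present in 1.55% of windows, and the AP-1 motif TGANTCA, present in 6.75%, were in neither window. These matches are letters in a sequence and not evidence of binding.

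Levels are given as CPM, the reads of a gene scaled to a common library size with edgeR's TMM factors. Per kilobase of exon, Aqp1 was the most abundant in healthy vehicle-treated C57BL/6JRj kidneys at 312 ± 60.5 CPM per kb (SD, n = 4), followed by Aqp2 at 85.8 ± 19.6, Aqp3 at 64.1 ± 3.32 and Aqp6 at 26.6 ± 11.4. Aqp11 at 8.02 ± 0.308, Aqp7 at 7.56 ± 1.62, Avpr2 at 4.17 ± 0.646 and Aqp4 at 2.23 ± 1.61 were far lower, and in this order Aqp11 and Aqp7, like Avpr2 and Aqp4, had overlapping values among the 4 mice. Healthy vehicle-treated BALB/c kidneys had the same 4 leading genes, Aqp1 at 437 ± 29.97 CPM per kb, Aqp2 at 257 ± 73.3, Aqp3 at 70.03 ± 8.004 and Aqp6 at 49.0 ± 7.04, with Aqp4 in the fifth place at 14.21 ± 2.31. The experiments differ in strain, sex and scaling, and were not compared by a test.

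The first question is how the disease itself changed these genes. In anti-GBM disease, taken as both diseased groups against both healthy groups, 4 of the 8 genes fell and 0 rose, while 48.3% of all 15859 genes tested passed an adjusted p of 0.05 (24.7% as lower). The fall was seen in Aqp11, Aqp3, Aqp1 and Aqp7. By the sites given above, AQP11, AQP1 and AQP7 are found in the proximal tubule, AQP1 also in the descending thin limb, and AQP3 in principal cells. Over the 30 mouse kidneys, Aqp11 had a correlation of 0.84 with proximal tubule markers, but Aqp1 only 0.12 and Aqp7 0.09. The median log2 fold change of the 8 genes was -0.48, against -0.02 for all genes tested. A share of 4 in 8 is close to the share over all genes in so broad a response.

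Among the 8 genes, Aqp11 gave the clearest separation. How many of all 15859 genes separated as fully was not counted, in a response where 48.3% of them passed. It stood at 71.6, 77.9, 77.6 and 75.0 CPM in the healthy vehicle-treated mice and at 77.1, 66.3 and 70.2 CPM in the healthy FGF23-treated mice. In anti-GBM disease it stood at 57.4, 46.8, 33.4 and 46.2 CPM with vehicle and at 36.7, 48.3 and 42.2 CPM with FGF23. Every diseased mouse was below every healthy mouse, and the log2 fold change was -0.73 (SE 0.10, adjusted p = 4.37e-05 by edgeR's quasi-likelihood test), a decrease to 0.602 times the healthy level. Within the vehicle groups alone the log2 fold change was -0.72 (adjusted p = 8.10e-04) and within the FGF23 groups alone it was -0.75 (adjusted p = 0.00242). In these narrower comparisons, where 39.8% and 27.2% of all genes passed, 1 of the 8 genes passed within vehicle (Aqp11) and 2 passed within FGF23 (Aqp11 and Aqp3).

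Aqp3, the basolateral water and glycerol channel of principal cells, was at 119, 109, 123 and 119 CPM in the healthy mice with vehicle and at 119, 148 and 102.1 CPM in those with FGF23. Diseased mice had 97.7, 89.4, 66.9 and 109.8 CPM with vehicle and 69.5, 94.0 and 89.0 CPM with FGF23. The ranges overlapped by 1 mouse on the diseased side, since 6 of 7 diseased mice were below the lowest healthy one. The log2 fold change was -0.46 (SE 0.11, adjusted p = 0.00382 by edgeR), it was -0.37 (adjusted p = 0.0597) among vehicle-treated mice alone and -0.55 (adjusted p = 0.0266) among FGF23-treated mice alone.

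For Aqp1, the healthy mice had 1019.55, 852, 639 and 773 CPM with vehicle and 838, 1058 and 1009 CPM with FGF23. The diseased mice had 459.6, 674, 441 and 816 CPM with vehicle and 614, 739 and 659.5 CPM with FGF23. The groups overlapped, 3 of 7 diseased mice lay below all healthy mice and 5 of 7 healthy mice lay above all diseased ones, and the log2 fold change was -0.49 (SE 0.14, adjusted p = 0.0110 by edgeR). The adjusted p was 0.0664 within vehicle and 0.0849 within FGF23, with log2 fold changes of -0.46 and -0.53.

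Aqp7 moved by a similar size with less certainty. Its levels were 24.7, 22.2, 14.7 and 23.9 CPM in healthy mice with vehicle and 17.6, 18.4 and 30.1 CPM in healthy mice with FGF23, against 7.62, 16.5, 12.8 and 21.2 CPM and 14.3, 16.8 and 15.4 CPM in the corresponding diseased groups. These ranges overlapped widely. The log2 fold change was -0.53 (SE 0.20, adjusted p = 0.0387 by edgeR), and the call was lost when any 1 of 9 of the 14 libraries was left out (3 healthy and 2 diseased vehicle-treated mice, 1 healthy and 3 diseased FGF23-treated mice), with adjusted p up to 0.161. Among vehicle-treated mice alone the adjusted p was 0.101, and among FGF23-treated mice alone it was 0.237. AQP7 is also the glycerol channel of adipocytes, and of 4 adipocyte markers tested 2 fell, Adipoq (log2 fold change -3.06, adjusted p = 0.0433) and Plin1 (-3.22, adjusted p = 0.0260), while Cidec and Cfd did not pass and Lep had too few counts. The summed level of the adipocyte markers was 0.199 to 121 CPM in healthy and 1.83 to 18.2 CPM in diseased mice. Over the 30 mouse kidneys of both experiments, Aqp7 had a correlation of 0.002 with the adipocyte markers. The part of adipocyte content in the Aqp7 levels was not tested.

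**Figure D1:**
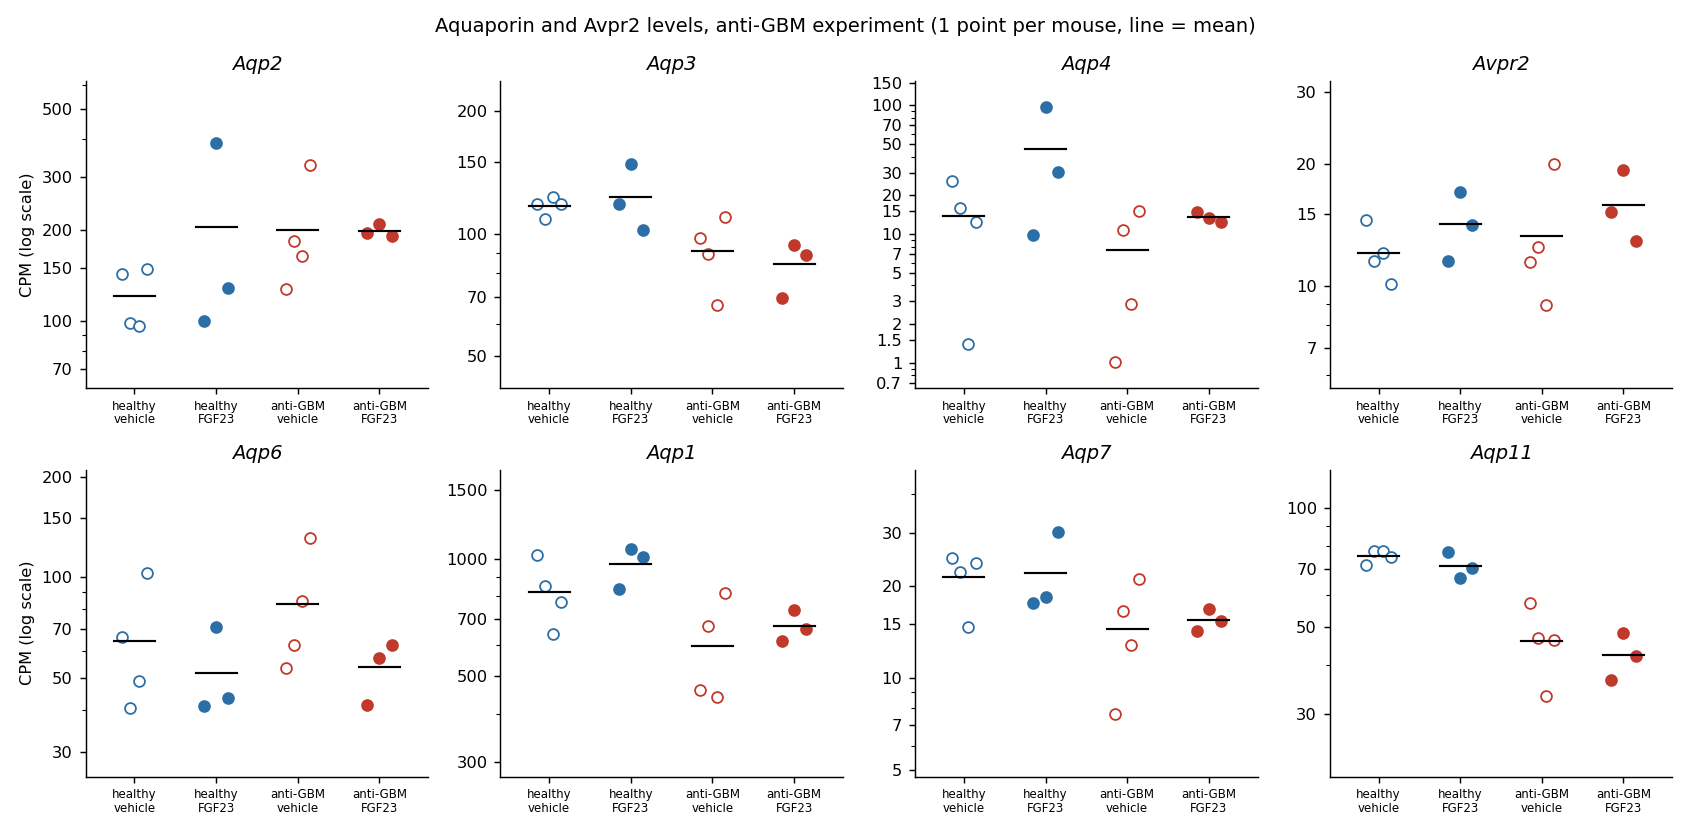
CPM on a log scale for each of the 8 genes in the 4 groups of the anti-GBM experiment, with 1 point per mouse, open for vehicle and filled for FGF23, blue for healthy and red for diseased, and a line at the mean. Aqp11 separates the 7 diseased from the 7 healthy mice, whereas Aqp2 and Aqp4 each have 1 healthy FGF23-treated mouse far above the others. The share of all genes that separate as fully was not counted.

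The remaining genes did not pass. Aqp2, the apical vasopressin-regulated channel, was at 143, 98.8, 96.7 and 148 CPM in healthy mice with vehicle and at 100.03, 387 and 129 CPM in healthy mice with FGF23. In disease it was at 128, 184, 164 and 327 CPM with vehicle and at 196, 210.0 and 191 CPM with FGF23. Apart from the healthy FGF23-treated mouse at 387 CPM, the diseased mice tended to the higher values, and the log2 fold change over all mice was 0.34 (SE 0.28, adjusted p = 0.337 by edgeR). Without that 1 mouse it was 0.76 with an adjusted p of 0.00737, so the absence of a call for Aqp2 rested on this library.

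The same mouse had the highest Aqp4 level, 96.5 CPM, and the highest summed level of 5 urothelium markers, 23.1 CPM against a median of 1.94 CPM and a range of 0.795 to 21.8 CPM in the other libraries of the experiment. Its principal cell markers (Scnn1b, Scnn1g, Hsd11b2, Fxyd4 and Elf5) summed to 314 CPM, within the range of 222 to 443 CPM of the others. Its endothelium markers summed to 555 CPM (351 to 526 in the others). Between FGF23 and vehicle in healthy mice the principal cell markers split. Elf5 differed by 2.39 and Fxyd4 by 0.92, but Scnn1b by -0.21, Scnn1g by -0.31 and Hsd11b2 by -0.12 (each adjusted p = 0.996 by edgeR). The part of the sampled zone in the Aqp2 and Aqp4 levels of this mouse was not tested.

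The ratio of Aqp2 to Aqp3 was also taken. Between healthy and anti-GBM mice with vehicle, mean Aqp2 went from 122 to 201 CPM and mean Aqp3 from 117 to 91.0 CPM. With FGF23, mean Aqp2 went from 205 to 199 CPM and mean Aqp3 from 123 to 84.1 CPM. The Aqp2 to Aqp3 ratio of CPM had a median of 1.06 (range 0.787 to 1.25) in healthy vehicle-treated mice and 1.26 (0.844 to 2.603) in healthy FGF23-treated mice. It had a median of 2.26 (1.30 to 2.98) in anti-GBM mice with vehicle and 2.23 (2.14 to 2.83) in anti-GBM mice with FGF23. All 4 diseased vehicle-treated mice lay above the healthy vehicle-treated ones, while the FGF23 groups overlapped because of the mouse named above. The ratio was chosen after the levels were seen and carries no test.

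Aqp4, the second basolateral channel of principal cells and the most variable of the 8 genes, ran from 1.02 to 96.5 CPM over the 14 mice. It had 25.7, 16.1, 1.40 and 12.3 CPM in healthy mice with vehicle, 9.76, 96.5 and 30.4 CPM in healthy mice with FGF23, 1.02, 10.7, 2.88 and 15.2 CPM in diseased mice with vehicle and 14.9, 13.4 and 12.4 CPM in diseased mice with FGF23. The log2 fold change with disease was -1.34 (SE 0.61, adjusted p = 0.0817 by edgeR). Leaving out the healthy vehicle-treated mouse at 1.40 CPM gave -1.50 (adjusted p = 0.0356), leaving out the healthy FGF23-treated mouse at 9.76 CPM gave -1.56 (adjusted p = 0.0430), and leaving out the one at 96.5 CPM gave -0.74 (adjusted p = 0.326).

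Aqp6 was between 40.4 and 103 CPM in healthy mice and between 41.5 and 131 CPM in diseased mice, with a log2 fold change of 0.21 (SE 0.24, adjusted p = 0.494 by edgeR). Avpr2, the Gs-coupled receptor at the head of the route, was between 10.1 and 17.02 CPM in healthy mice and between 8.94 and 20.01 CPM in diseased mice. Its log2 fold change was 0.14 (SE 0.17, 95% confidence interval -0.21 to 0.49, adjusted p = 0.511). Arhgap4, the gene that overlaps it on the other strand, rose by 0.69 on the log2 scale (SE 0.14, adjusted p = 0.00126), and its part in the Avpr2 counts was not tested.

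Other genes of the vasopressin route moved in both directions in anti-GBM disease, and their counts stand against the 48.3% of all genes that passed. Of 13 tested genes of vasopressin and cyclic AMP signaling, 3 rose and 2 fell, with a median log2 fold change of -0.01. The prostaglandin receptor Ptger4 rose by 1.09 on the log2 scale (SE 0.14, adjusted p = 3.12e-05), the vasopressin V1a receptor Avpr1a by 0.39 (adjusted p = 0.0496) and the adenylyl cyclase Adcy3 by 0.33 (adjusted p = 0.00919). The kinase anchor Akap7 fell by 0.48 (adjusted p = 2.31e-04) and the catalytic subunit Prkacb of protein kinase A fell by 0.26 (adjusted p = 0.00129), all by edgeR and all named after their values were seen. Of 13 genes of AQP2 trafficking, 3 rose (Stx4a, Nedd4l and Hspa8) and 4 fell (Myo5b, Rab11fip2, Snap23 and Stx3). Here Rab11fip2, an effector of the recycling endosome, fell most, by 0.62 (SE 0.09, adjusted p = 9.13e-05), and Nedd4l, a ubiquitin ligase, rose by 0.36 (adjusted p = 0.00105). The transcription factor Tfcp2l1 was the 1 of 9 collecting duct regulators that rose, by 0.34 (adjusted p = 0.0189), and 0 of 11 genes of urine concentration and osmolyte handling passed by edgeR (1 had an unadjusted p below 0.05). Aqp5, Aqp8, Aqp9, Aqp12 and Mip had too few counts to be tested.

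Markers of the cells that carry these channels also changed, in either direction, again where 48.3% of all genes passed and 24.7% were lower. Of 7 proximal tubule markers, 6 fell and 0 rose (median log2 fold change -0.54), and their summed level was 11283 to 15408 CPM in healthy and 6741 to 13142 CPM in diseased mice. Of 5 principal cell markers, 3 rose, the sodium channel subunits Scnn1b (log2 fold change 0.52, adjusted p = 0.00130) and Scnn1g (0.53, adjusted p = 0.00130) and the cortisol-inactivating enzyme Hsd11b2 (0.46, adjusted p = 0.00219), and 0 fell. Fxyd4 (-0.29, adjusted p = 0.434) and Elf5 (-0.35, adjusted p = 0.687) did not pass. Aqp3, a channel of the same cell, fell. The summed level of the 5 markers was 222 to 326 CPM in healthy and 293 to 443 CPM in diseased mice. Of 7 leukocyte markers, 6 rose and the B cell gene Cd79a fell, with log2 fold changes of 2.82 for the integrin Itgam and 1.99 for the macrophage protein Cd68, and their summed level was 69.9 to 125 CPM in healthy and 123 to 192 CPM in diseased mice. The 4 tubular injury markers (Havcr1, Lcn2, Krt20 and Spp1) all rose, by 3.53 (Spp1) to 7.59 (Krt20) on the log2 scale, from a summed 493 to 918 CPM in healthy to 3771 to 16130 CPM in diseased mice. The part of these marker shifts in the channel levels was not tested.

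In Adriamycin nephropathy none of the 8 genes passed, where 1.94% of 16020 genes tested did by edgeR, and 3 of the 8 had an unadjusted p below 0.05 (Aqp4, Aqp7 and Aqp11). Aqp11 was at 71.4, 67.4, 76.8 and 76.2 CPM in healthy vehicle-treated mice, at 71.2, 78.8, 76.7 and 69.15 CPM in healthy FGF23-treated mice, at 82.7, 65.0, 73.7 and 89.1 CPM in diseased vehicle-treated mice and at 75.6, 92.4, 83.9 and 86.4 CPM in diseased FGF23-treated mice. These groups overlapped, and the log2 fold change was 0.14 (SE 0.06, 95% confidence interval 0.01 to 0.27, adjusted p = 0.278), an interval that lies wholly above that of anti-GBM disease (-0.95 to -0.52). Whether the diseases differ was not tested, since strain, sex and model all differ between the experiments.

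Aqp4 in this experiment was highest in the healthy vehicle-treated mice, with 103, 96.9, 83.5 and 70.7 CPM. It was at 53.8, 39.98, 53.6 and 58.2 CPM in healthy mice after FGF23, at 33.7, 63.8, 48.4 and 34.1 CPM in Adriamycin nephropathy with vehicle and at 74.4, 41.9, 61.0 and 19.996 CPM with FGF23. The healthy vehicle-treated mice did not overlap with the first 2 of these 3 groups, and how many of all genes did the same was not counted. The disease difference among vehicle-treated mice was -0.97 on the log2 scale (SE 0.29, adjusted p = 0.265) and over all mice -0.51 (SE 0.21, adjusted p = 0.242), neither of which passed. Taken within vehicle, where 0.331% of genes passed, or within FGF23, where 0.699% did, 0 of the 8 genes passed by edgeR (1 and 2 had an unadjusted p below 0.05).

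Aqp2 ranged from 256 to 503 CPM in healthy and from 171 to 553 CPM in diseased mice (log2 fold change -0.33, SE 0.21, adjusted p = 0.511). Without the diseased FGF23-treated mouse at 553 CPM the difference was -0.56, with an adjusted p of 0.0825. Aqp3 ranged from 113 to 161 and from 96.6 to 137 CPM (-0.13, SE 0.08, adjusted p = 0.469). Aqp1 differed by -0.02 (SE 0.07, 95% confidence interval -0.16 to 0.13), Aqp7 by -0.14 (SE 0.06), Aqp6 by 0.06 (SE 0.18) and Avpr2 by 0.03 (SE 0.21), with adjusted p from 0.322 to 0.967. No gene of the vasopressin, trafficking, transcription factor or urine concentration lists passed. Where 1.94% of all genes passed, the adipocyte markers Cidec (-4.31, adjusted p = 0.0469 by edgeR) and Cfd (-6.48, adjusted p = 0.0318) were lower, while Adipoq, Plin1 and Lep did not pass. The injury marker Havcr1 was lower (-0.98, adjusted p = 0.0157), and Lcn2, Krt20 and Spp1 did not pass. The part of these shifts in the channel levels was not tested. The Aqp2 to Aqp3 ratio had medians of 2.65 in healthy vehicle-treated, 2.58 in healthy FGF23-treated, 2.01 in diseased vehicle-treated and 2.09 in diseased FGF23-treated mice, with overlapping ranges.

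**Figure D2:**
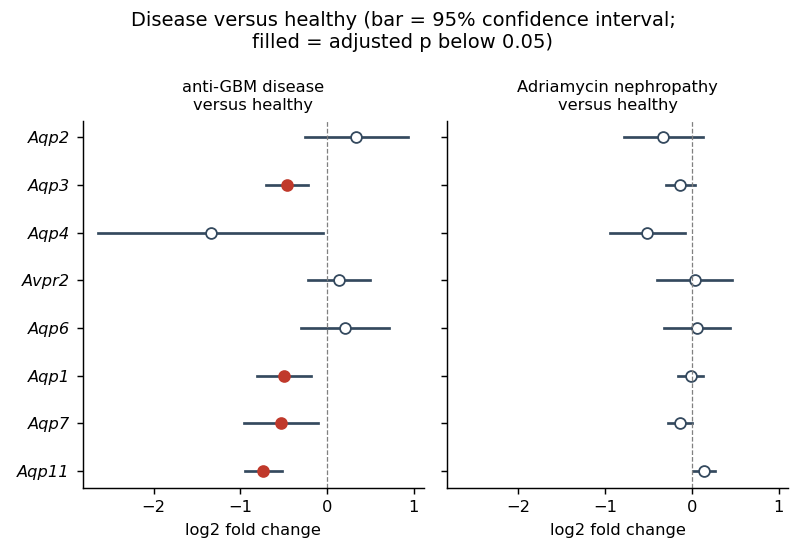
Log2 fold change of disease against healthy mice for each of the 8 genes in anti-GBM disease and in Adriamycin nephropathy, with the 95% confidence interval as a bar and filled points for an adjusted p below 0.05. The 4 filled points, Aqp3, Aqp1, Aqp7 and Aqp11 of anti-GBM disease, lie between -0.73 and -0.46, and there are none in Adriamycin nephropathy.

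**Figure D3:**
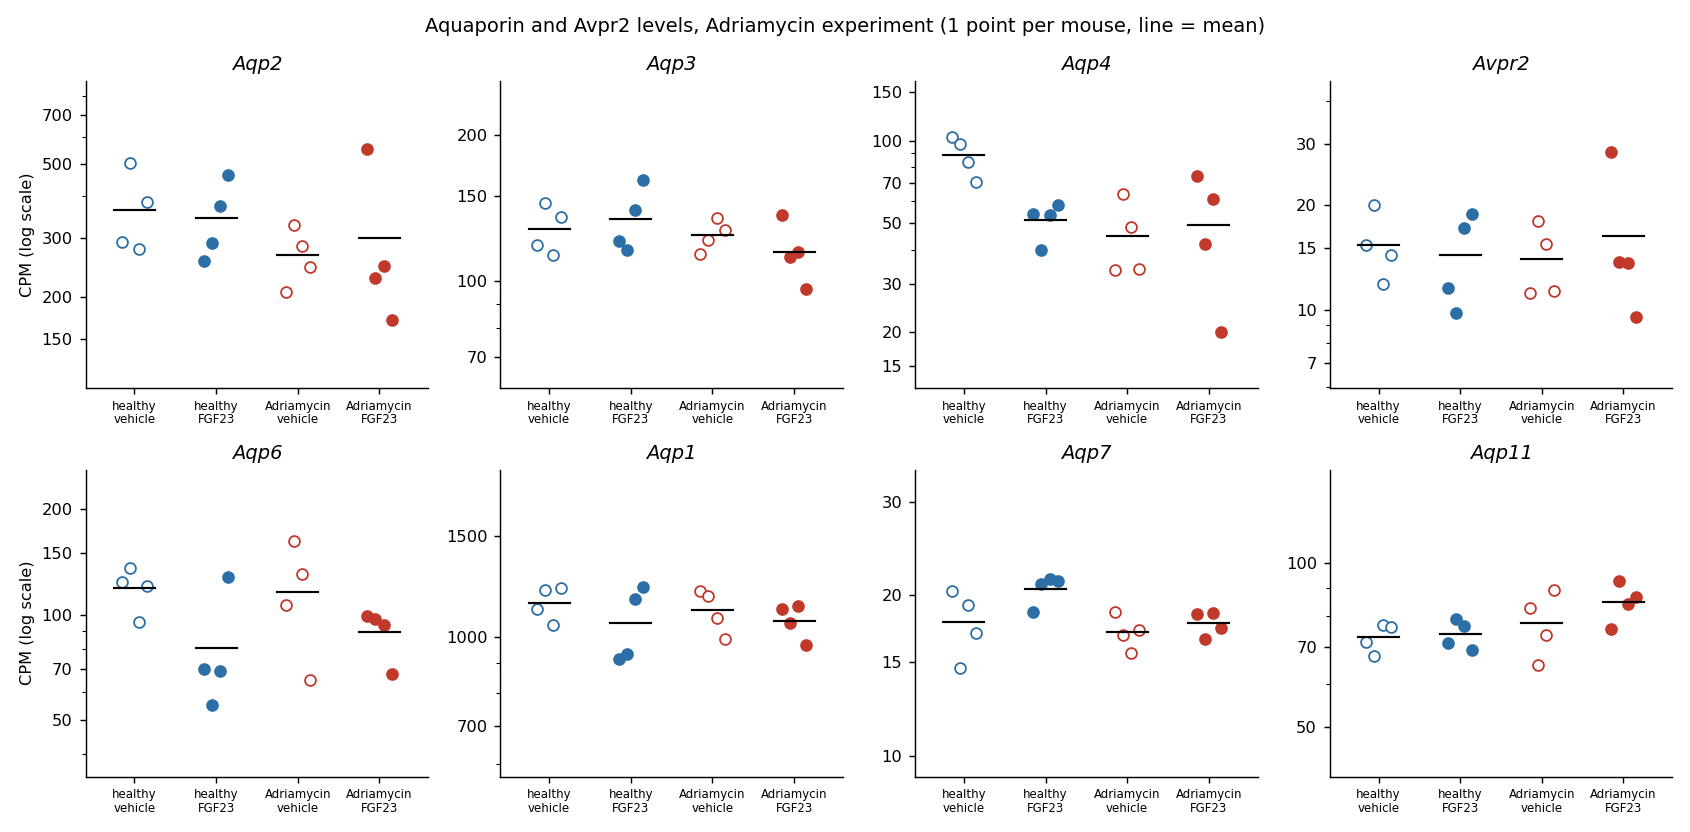
CPM on a log scale for each of the 8 genes in the 4 groups of the Adriamycin experiment, drawn as for the anti-GBM experiment with 1 point per mouse and a line at the mean. For Aqp4 the 4 healthy vehicle-treated mice lie between 70.7 and 103 CPM, above all mice of the healthy FGF23 and the diseased vehicle groups. The share of all genes that do the same was not counted.

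The second question is whether FGF23 changed these genes. In mice, 0 of the 8 genes passed in any of the 4 FGF23 versus vehicle comparisons or in either interaction of FGF23 with disease, which makes 48 tests with edgeR, of which 4 had an unadjusted p below 0.05 and the lowest adjusted p was 0.444. The share of all genes called was 0% in healthy mice of either experiment (689 and 1072 genes had an unadjusted p below 0.05), 0.24% in anti-GBM disease, 0.0375% in Adriamycin nephropathy, and 0.0315% and 0% in the interactions of the anti-GBM and the Adriamycin experiment (1316 and 819 at an unadjusted p below 0.05), and DESeq2 called none of the 8 genes in these comparisons either.

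After 6 daily injections in healthy mice, Aqp4 differed by 1.72 on the log2 scale (SE 0.82, adjusted p = 0.996) and Aqp2 by 0.75 (SE 0.39, adjusted p = 0.996). Without the mouse that held 387 CPM of Aqp2 these values were 0.52 and -0.09. Aqp11 differed by -0.09 (SE 0.14, 95% confidence interval -0.38 to 0.21) and Aqp3 by 0.07 (SE 0.16, -0.27 to 0.41).

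In anti-GBM disease, FGF23 against vehicle gave 0.91 for Aqp4 (SE 0.87), -0.62 for Aqp6 (SE 0.34, adjusted p = 0.444) and 0.27 for Avpr2 (SE 0.23). Aqp2 differed by -0.01 with a 95% confidence interval of -0.85 to 0.83, so changes as large as these limits in either direction stayed within the interval. The narrowest intervals were those of Aqp11 (-0.42 to 0.19) and Aqp3 (-0.45 to 0.23).

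After a single injection in healthy BALB/c mice, 3 genes had an unadjusted p below 0.05, Aqp4 with a log2 fold change of -0.79 (SE 0.29, adjusted p = 0.688), Aqp6 with -0.56 (SE 0.26, adjusted p = 0.738) and Aqp7 with 0.21 (SE 0.09, adjusted p = 0.725). Aqp6 was at 124, 136, 95.1 and 121 CPM with vehicle and at 70.1, 55.2, 69.0 and 128 CPM with FGF23, where 3 of 4 FGF23-treated mice were below all vehicle-treated ones. None of 5 adipocyte and 5 erythroid markers passed in this comparison. The adipocyte markers had log2 fold changes of 2.51 to 3.09 and summed to 0.716 to 53.8 CPM with vehicle and 0.141 to 253 CPM with FGF23, and the erythroid markers had -0.72 to -0.54 and summed to 137 to 225 CPM and 72.2 to 167 CPM. Their part in the Aqp6 and Aqp7 values was not tested.

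In Adriamycin nephropathy the 8 genes differed by -0.38 (Aqp6) to 0.22 (Avpr2), and the fourth low unadjusted p was the interaction of Aqp4, at 0.92 (SE 0.41, adjusted p = 0.967). Lists of the vasopressin route had 0 genes called in any of these FGF23 comparisons. Nearest to the threshold was Creb1 of the cyclic AMP list in the anti-GBM experiment, named after its values were seen. With FGF23 it differed by 0.43 in disease (SE 0.09, adjusted p = 0.0932 by edgeR) and by -0.31 in healthy mice (adjusted p = 0.996). Its interaction was 0.73 (SE 0.13, adjusted p = 0.0684). The list genes were not followed under the alternative settings.

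**Figure D4:**
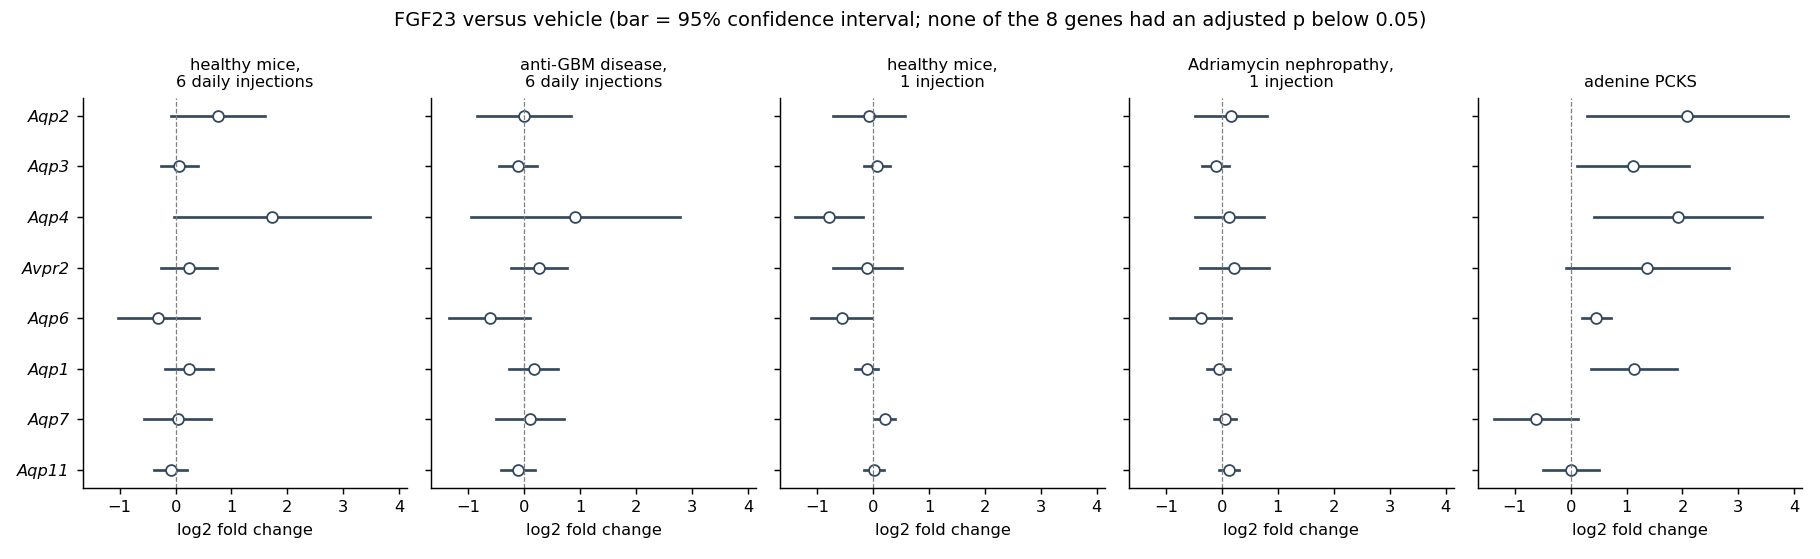
Log2 fold change of FGF23 against vehicle for each of the 8 genes in healthy and diseased mice of both experiments and in PCKS, with the 95% confidence interval as a bar and the same axis in all panels. None of the points passed an adjusted p of 0.05, and the intervals are widest for Aqp4 in the anti-GBM experiment and for Aqp2, Aqp4 and Avpr2 in PCKS.

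In PCKS the mean levels of the 8 genes with vehicle ran from 0.850 CPM (Aqp4) to 97.1 CPM (Aqp1). Between FGF23 and vehicle 0 of 15090 genes tested passed (0%, with 738 at an unadjusted p below 0.05 by edgeR, whereas DESeq2 called 2 genes, none of them an aquaporin or Avpr2). Of the 8 genes, 7 had a higher estimate with FGF23 and 5 had an unadjusted p below 0.05, and all adjusted p lay between 0.849 and 0.993. The median log2 fold change of the 8 genes was 1.12, against -0.01 for all genes tested.

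One FGF23-treated culture, replicate 1, stood apart. Aqp2 was at 30.9, 5.80, 34.7 and 9.22 CPM in the vehicle cultures 1 to 4 and at 247, 25.8, 44.1 and 22.6 CPM in the FGF23 cultures 1 to 4. That culture also held 44.7 CPM of Aqp3, where the other FGF23 cultures had 10.9 to 14.8 CPM and the vehicle cultures 5.27 to 13.3 CPM, and 21.3 CPM of Avpr2, where the other FGF23 cultures had 2.16 to 5.71 CPM and the vehicle cultures 1.82 to 3.79 CPM. Markers of several tubule segments were highest in it too. Principal cell markers summed to 238 CPM (35.9 to 88.3 CPM in the other cultures), intercalated cell markers to 209 CPM (103 to 139), thick ascending limb markers to 7193 CPM (1927 to 5111) and proximal tubule markers to 695 CPM (281 to 484). Erythroid markers summed to 93.5 CPM (3.93 to 40.8). The part of tissue content in these levels was not tested.

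With all cultures the log2 fold change was 2.09 for Aqp2 (SE 0.81), 1.11 for Aqp3 (SE 0.45), 1.37 for Avpr2 (SE 0.66) and 1.14 for Aqp1 (SE 0.35), each with an adjusted p of 0.849. Without FGF23 replicate 1 they were 0.63, 0.43, 0.17 and 0.65. Aqp4 (log2 fold change 1.92, SE 0.68) had 5 to 21 counts in the vehicle cultures and 46, 14, 88 and 9 counts in the FGF23 cultures, so its difference came from replicates 1 and 3. By number, Aqp1, Aqp2, Aqp3 and Aqp6 were higher in each of the 4 FGF23 cultures than in the vehicle culture of the same number. The numbers were not taken as pairs, so this carries no test and no weight as agreement between replicates.

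Among the 8 genes, Aqp6, the vesicular channel of intercalated cells, was the gene whose groups did not overlap. How many of all 15090 genes had groups without overlap was not counted. It was at 18.01, 18.04, 14.7 and 16.7 CPM with vehicle and at 26.9, 21.2, 21.03 and 23.9 CPM with FGF23, a log2 fold change of 0.46 (SE 0.12, adjusted p = 0.849), and leaving out single cultures moved it between 0.38 and 0.50. Aqp7, at 1.195 to 2.81 CPM with vehicle and 0.779 to 1.55 CPM with FGF23, had the only negative estimate, -0.61 (SE 0.34). Aqp11 stood at 1.41 to 2.17 and 1.55 to 1.99 CPM, with a log2 fold change of 0.01 (SE 0.23).

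**Figure D5:**
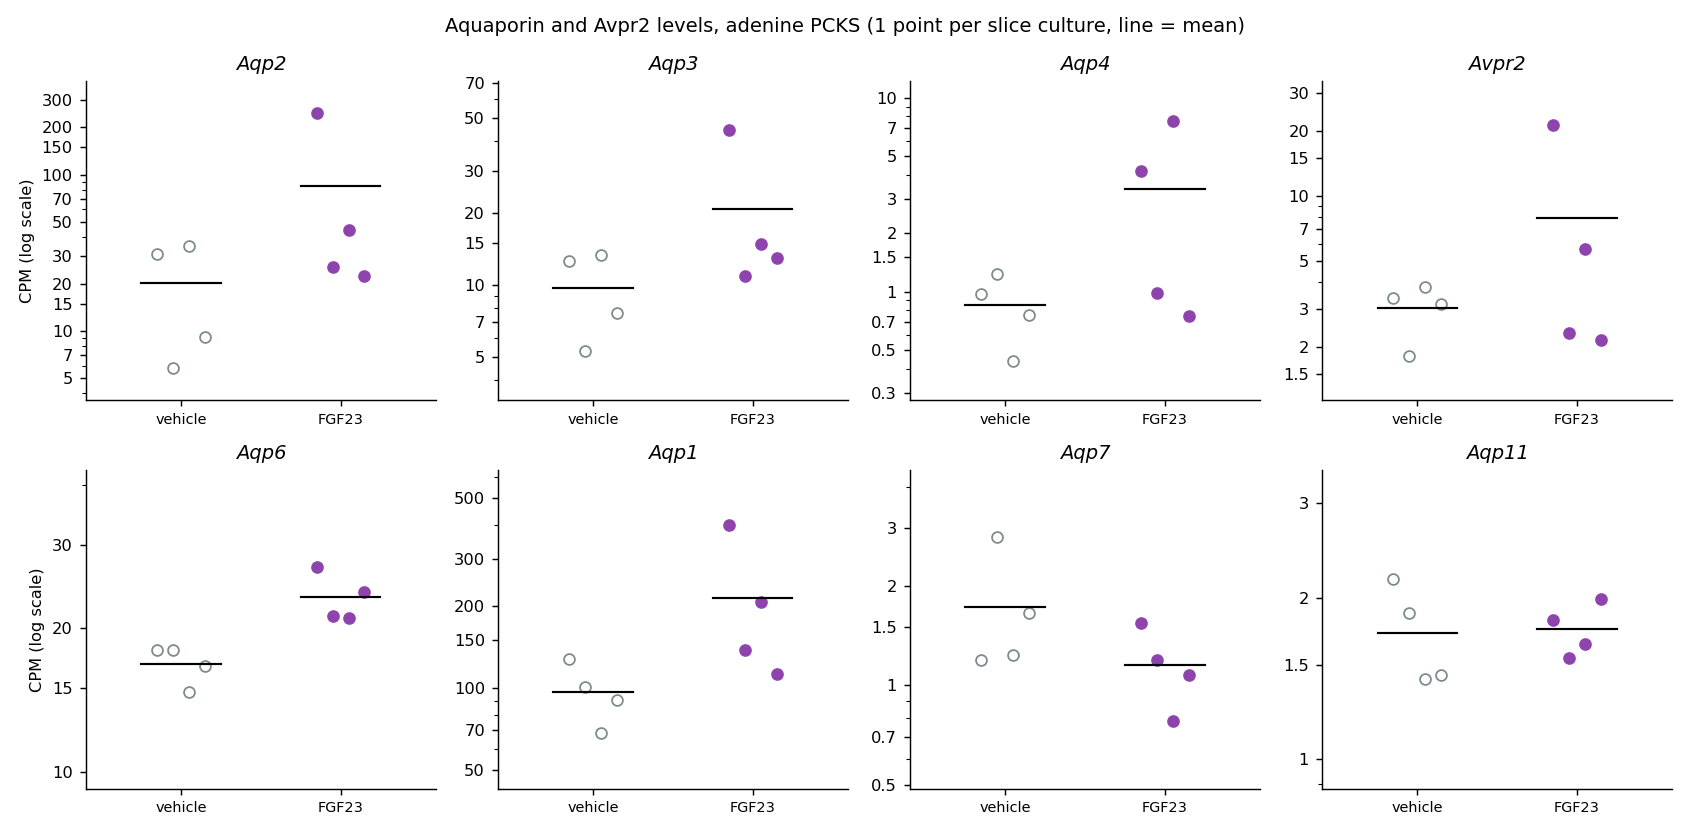
CPM on a log scale for each of the 8 genes in the PCKS cultures, with 1 point per culture, open for vehicle and filled for FGF23, and a line at the mean. One FGF23 culture holds the highest Aqp2, Aqp3, Avpr2, Aqp1 and Aqp6 levels, and the groups of Aqp6 do not overlap (14.7 to 18.04 against 21.03 to 26.9 CPM). The share of all genes without overlap was not counted.

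The genes whose levels were most like each channel across the 30 mouse kidneys were taken from 13501 genes, by Pearson's r of log2 CPM centred within each experiment, as a description with no test, since the libraries share the disease groups and the sampled zone. For Aqp11 they were Aldh6a1 (r = 0.97), Phyh (0.96) and Pbld1 (0.96), for Aqp7 Mep1b (0.90), Kyat3 (0.89) and Cyp51 (0.89), and for Aqp1 Csad (0.89), Ppp4r4 (0.89) and Pou3f3 (0.88). Aqp2 was most like Slco4a1 (0.85), Ehd4 (0.85) and L1cam (0.84), Avpr2 most like Gal3st1 (0.85), Sh2d4a (0.81) and Cdkn2b (0.79), and Aqp3 most like Pde1a (0.81), Dcaf11 (0.81) and Mxi1 (0.78). For Aqp4 they were Wasf3 (0.89), AC138228.3 (0.87) and Slc4a11 (0.86), and for Aqp6 Ap1m2 (0.78), Cdh1 (0.77) and Slc4a1 (0.77), the last of which is an anion exchanger of acid-secreting intercalated cells and of red blood cells. With the mean log2 CPM of the erythroid markers Aqp6 had r = 0.51 over the 30 kidneys, with that of the intercalated cell markers 0.23 and of the principal cell markers 0.62. With the principal cell markers Aqp2 had 0.79, Avpr2 0.73, Aqp4 0.42 and Aqp3 0.23. With the proximal tubule markers Aqp11 had 0.84, but Aqp1 only 0.12 and Aqp7 0.09. With the thick ascending limb markers Aqp1 had 0.82 and Aqp7 0.75, and with the tubular injury markers Aqp11 had -0.89. Among the 8 genes, Aqp2 and Avpr2 had r = 0.66 over the 14 kidneys of the anti-GBM experiment and 0.86 over the 16 of the Adriamycin experiment. Aqp2 and Aqp3 had r = 0.01 in the first and 0.85 in the second.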

How the data were processed

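Bulk RNA-Seq of 38 libraries was used. The authors aligned reads to GRCm38 with STAR 2.7.9a, counted them on Ensembl genes with featureCounts 1.5.1 and deposited raw counts, unfiltered and unscaled. Total counts were 13704248 to 23630210 (anti-GBM), 15665050 to 27583911 (Adriamycin) and 11186925 to 16254987 (PCKS). Libraries were grouped by the sample labels, with mouse columns assigned to groups through the study's supplementary tables. Columns not used numbered 0. Counts were fitted per experiment, all groups together, with edgeR 4.0.16 in R 4.3.3 (TMM, filterByExpr with minimum count 10, quasi-likelihood test, Benjamini-Hochberg adjustment within each of 9 comparisons, threshold 0.05). Confidence intervals are 95% and unadjusted. Log2 CPM used a prior count of 2. DESeq2 1.42.0 was an alternative. The test was run on counts simulated from its own fitted spread, with no outlying library built in. Changes of 1 on the log2 scale were recovered in 62 of 86, 92 of 114 and 85 of 102 genes (anti-GBM, Adriamycin, PCKS). Changes of 2 were recovered in 101 of 114, 83 of 86 and 93 of 98. Unchanged genes called numbered 4, 12 and 15, and 0 where nothing was changed. This does not show how the test behaves with outlying libraries. All members are described, and pathway lists are given as counts. The rule for naming pathway genes (called in both diseases or with FGF23) gave 0 genes, so those named in anti-GBM disease were chosen after their values were seen. The 3 most alike genes are named. The 8 genes, the lists and the markers were chosen with earlier results of these data known. Counts of libraries of a group differed by at least 2.12 chi-square units per degree of freedom, so none was counted as a duplicate. Whether slice cultures came from separate mice is not given in the sources used here, and their p-values measure the spread between cultures.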

Additional observations from a re-analysis of the deposited data

Results flagged for a closer look

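Of 64 combinations of a gene with a group of 4 libraries, 3 had a library far from the others, and chance gives about 1 in 20. In PCKS with FGF23, replicate 1 had 247 CPM of Aqp2 where the others had 22.6 to 44.1 CPM, and 44.7 CPM of Aqp3 where the others had 10.9 to 14.8 CPM. In healthy BALB/c mice given FGF23, 1 mouse had 18.6 CPM of Aqp7 where the others had 21.04 to 21.5 CPM. Without replicate 1, the log2 fold change of Aqp2 in PCKS was 0.63 in place of 2.09.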

How the results depend on the processing

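Among the 8 genes, Aqp11, Aqp3 and Aqp1 kept an adjusted p below 0.05 in anti-GBM disease under RLE factors, other filters, a robust fit, DESeq2, combined adjustment and each of the 14 libraries left out (largest adjusted p 0.0365). A minimum absolute log2 fold change of 1 ended all 4 calls, and within vehicle or FGF23 alone the calls of Aqp1 and Aqp7 ended, as did that of Aqp3 within vehicle. Aqp7 also lost its call with 10 counts in every library (adjusted p 0.0530), with combined adjustment (0.127) and without any of 9 libraries. Without a count filter Aqp4 passed in this disease (log2 fold change -1.31, adjusted p 0.0398). In the Adriamycin, FGF23, interaction and PCKS comparisons the 8 genes passed under none of the alternatives. Levels of the 8 genes moved by less than 1 SD with a prior count of 0.5.

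The number of genes called among all tested moved more. It was 7665 for anti-GBM disease, 38 for FGF23 in it, 5 for their interaction, 310 for Adriamycin nephropathy and 6 for FGF23 in it, and 0 elsewhere. With RLE factors the anti-GBM interaction gave 3. Above an absolute log2 fold change of 1 there were 1596, 25, 55 and 1 for anti-GBM disease, FGF23 in it, Adriamycin nephropathy and FGF23 in it. Adjustment over the comparisons of an experiment combined gave 66, 283 and 192 for FGF23 in healthy mice, in anti-GBM disease and their interaction, and 134, 1, 12 and 5 for Adriamycin nephropathy, FGF23 in healthy mice, in disease and their interaction. Without a filter FGF23 gave 60 and an interaction of 29 in the anti-GBM experiment, 1 in healthy mice, 21 in disease and 1 for the interaction in the Adriamycin experiment, and 2 in PCKS. DESeq2 gave 154 and 44 in the former, 575 for Adriamycin nephropathy with 16, 35 and 4 for FGF23 in healthy mice, in disease and their interaction, and 2 in PCKS. Fits of the compared groups alone gave 12 and 3 for FGF23 in anti-GBM disease and in Adriamycin nephropathy. FGF23 groups alone gave 4310 for anti-GBM disease and 112 for Adriamycin nephropathy, for which vehicle groups alone gave 53.

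With 1 library left out in turn, the counts ranged from 6812 to 7645 for anti-GBM disease, 0 to 1 for FGF23 in its healthy mice, 12 to 49 in disease, 0 to 14 for the interaction, 172 to 487 for Adriamycin nephropathy, 0 to 4 for FGF23 in its healthy mice, 1 to 12 in disease and 0 to 1 for the interaction, and were 0 throughout in PCKS. Same-numbered PCKS cultures had correlations of 0.107, 0.105, -0.105 and 0.112 of their deviations from the group means, and not every culture correlated best with its own number, so the numbers were not taken as pairs, and whether same-numbered cultures came from 1 mouse is not given in the sources used here. With that number as a replicate block 0 genes passed in PCKS and the log2 fold change of Aqp2 was 1.71 (adjusted p 0.705). No paired analysis was possible in the mice because their columns carry no replicate number. Depth did not limit Aqp1, with at least 774 counts in every library, but Aqp4 and Aqp7 had as few as 5 and 9 counts in slice cultures.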
